A study of Caenorhabditis elegans with 6 samples.

Results

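The genes described here are the 4 actin genes act-1, act-2, act-3 and act-4, the 4 broadly used tubulin genes tba-1, tba-2, tbb-1 and tbb-2, and the 2 tubulin genes of touch receptor neurons, mec-7 and mec-12, of Caenorhabditis elegans. They were taken as a list of gene names, with earlier results of these data known, and all 10 were found among 19294 protein-coding genes that hold or lie next to at least 1 listed GATC site. The measurement is DNA adenine methyltransferase identification (DamID), in which the bacterial methyltransferase Dam, fused to a protein of interest, methylates GATC sequences near that protein, and the methylated fragments are amplified and sequenced. Of the 6 libraries, 3 came from strain BN1470 with Dam::EMR-1, in which Dam is joined to emerin of the worm, an integral protein on the inner side of the nuclear envelope, and 3 from strain BN1465 with GFP::Dam, in which Dam is fused to a fluorescent protein and is not tethered to the nuclear envelope. All 6 are labelled with the wild-type genotype and with EMS, the early blastomere that gives rise to the gut and to much of the pharynx. The labels give the same husbandry for all: bacteria lacking Dam methylation, 20 °C, embryos of 4000 adults per strain collected after 72 h of growth, and 200 ng of genomic DNA amplified through 24 PCR cycles. DNA was taken from embryos and not from sorted cells, the name of the deposited tables carries med1p, which the labels do not explain, and no RNA was measured, so the EMS label cannot be set against marker expression here. Each group is 1 strain, so effects of the strain and of the construct cannot be told apart. Nothing in the labels says that replicates were grown as separate cultures, and p-values therefore measure only the spread between these samples, which may be technical.

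Actin forms the filaments of the cell cortex and of muscle, and tubulin forms the microtubules of the spindle, the cytoskeleton and the axon, each microtubule being built from pairs of one alpha-tubulin and one beta-tubulin. Every dividing embryonic cell uses actin and the broadly used tubulins, whereas MEC-12, an alpha-tubulin, and MEC-7, a beta-tubulin, build the specialised microtubules of the touch receptor neurons. In many animals, chromatin held at the nuclear envelope carries mostly genes that are silent in the cell concerned, and genes in heavy use more often lie in the nuclear interior.

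The tables give, for each GATC site, a log2 ratio of Dam::EMR-1 over GFP::Dam for each of 3 replicate numbers, centred so that the mean over all sites is 0. Which group is the numerator rests on the tables being named for EMR-1 and on how DamID ratios are usually written. With the opposite order every sign and every assignment of reads to a group would turn. Because of the centring, a site without reads in either library of a pair stands at -0.59, -0.34 and -0.16 in replicates 1 to 3. Reads per library totalled 15719682 to 22407988 in Dam::EMR-1 and 16278015 to 17535839 in GFP::Dam. The level of a gene is the mean log2 ratio over its listed sites, including those within 500 bp of the gene. A gene was called lower or higher in Dam::EMR-1 at an adjusted p of 0.05 (limma, two-sided, adjusted over 18651 genes).

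Of the 10 genes, 9 were called lower in Dam::EMR-1, 0 were called higher and 1, mec-12, was not called. Among all genes tested, 27.2% were called lower and 30.3% higher. The median of the 10 mean log2 ratios was -4.53, against 0.31 over all genes tested. The 4 actins had a median log2 ratio of -5.05, the 4 broadly used tubulins had a median of -3.84, and the 2 touch receptor neuron tubulins had means of -4.10 and 1.20. The replicate ratios of act-2, act-4, act-3 and tba-2 lay close together, with an SD of 0.17 to 0.47, whereas those of mec-12 had an SD of 2.83 (n = 3). On reads summed per gene, DESeq2 called 8 of the 9 genes to which it gave an adjusted p lower and 0 higher, against 26.7% lower and 28.4% higher over all genes. The quasi-likelihood test of edgeR on the same reads called 5 of the 10 lower and 0 higher, against 17.1% lower and 17.3% higher over all genes.

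**Figure D1:**
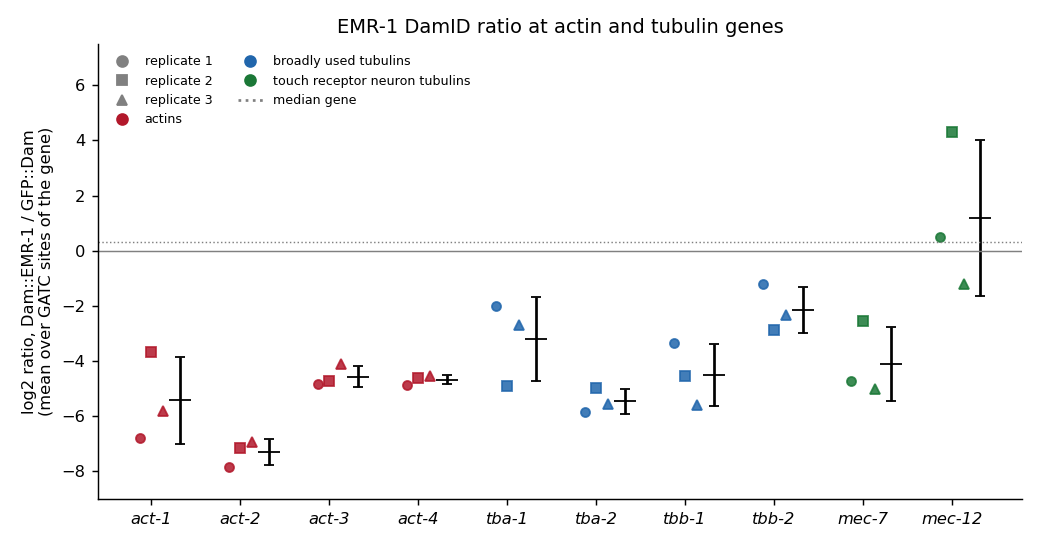
Log2 ratio of Dam::EMR-1 over GFP::Dam for each gene on the y axis, with 1 point per replicate (circle, square, triangle) and, beside the points, the mean with SD (n = 3); the dotted line is the median gene at 0.31. All 3 replicates of 9 genes lie below 0, and the 3 points of mec-12 lie on both sides of it.

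The actin genes act-1, act-2 and act-3 lie next to each other in the middle of chromosome V, and act-4 lies alone on the left of chromosome X, positions being given by cutting every chromosome into 3 equal segments. Their products are nearly identical proteins that serve muscle and non-muscle cells, and their coding sequences are near-identical copies, so that a short read from one may also match another. How reads that match several places were treated is not given in the sources used here, and the share of sites left out of the tables differed between these genes. Between the first and last listed site of each gene, 3 of 12 numbered GATC sites are not listed for act-2, 4 of 16 for act-4, 7 of 11 for act-1 and 10 of 12 for act-3, against 35.4% of 269041 numbered sites genome-wide. Listed sites have at least 10 reads in all. Whether unlisted sites go back to reads that match several copies was not tested.

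For act-2 (CELE_T04C12.5, chromosome V, 11076777 to 11078154, ce11), the 3 Dam::EMR-1 libraries held 0, 21 and 7 reads over 9 sites, against 4776, 3808 and 4693 reads in the 3 GFP::Dam libraries. The groups did not overlap, and the GFP::Dam libraries were close to each other. Scaled to the library's total reads (CPM), the mean was 0.580 ± 0.685 in Dam::EMR-1 and 258 ± 21.2 in GFP::Dam (SD, n = 3 each), the GFP::Dam mean being 446 times the other. The log2 ratios were -7.84, -7.15 and -6.95 (adjusted p = 1.3e-05, limma), and 0.397% of all genes tested had a lower mean. The listed sites of act-2 that were deep enough to test were all lower, 8 of 8, and 4 of its 9 sites had no read in any Dam::EMR-1 library. The lowest of the 9 sites, 181 bp inside the lower end of the gene, had 0, 0 and 2 reads in Dam::EMR-1 and 1409, 1111 and 1336 in GFP::Dam.

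For act-1 (CELE_T04C12.6, chromosome V, 11081052 to 11082415), the Dam::EMR-1 libraries held 0, 164 and 1 reads over 4 sites, against 1403, 1400 and 1210 in GFP::Dam. The groups did not overlap, but replicate 2 held 99.5% of the Dam::EMR-1 CPM of the gene. Its log2 ratios followed, at -6.78, -3.68 and -5.81, with a mean of -5.42 ± 1.58 (SD, n = 3, adjusted p = 0.00032, limma). Without replicate 2 the mean was -6.29, and without the Dam::EMR-1 library of that replicate alone -6.45. Those reads sat at 2 GATC sites that follow each other 537 bp apart, with 96 and 68 reads, while the other 2 sites had no read in any Dam::EMR-1 library.

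For act-3 (CELE_T04C12.4, chromosome V, 11071690 to 11073264), only 2 sites are listed, and their reads came to 26, 12 and 21 in Dam::EMR-1 against 235, 248 and 242 in GFP::Dam. The groups did not overlap, with levels of 1.04 ± 0.245 CPM in Dam::EMR-1 and 14.2 ± 0.956 CPM in GFP::Dam (SD, n = 3 each). The mean log2 ratio was -4.56 ± 0.39 (SD, n = 3, adjusted p = 0.001, limma). It averages 2 unlike sites: one at -1.46 ± 0.16, with 26, 12 and 20 Dam::EMR-1 reads against 53, 24 and 52 GFP::Dam reads, and one at -7.66 ± 0.80, with 0, 0 and 1 reads against 182, 224 and 190 (SD, n = 3). Of these sites, the second was called lower. Neither act-1 nor act-3 could be tested on sites in no other annotated gene.

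For act-4 (CELE_M03F4.2, chromosome X, 4960621 to 4964413), 10 of 12 sites gave reads per library. They summed to 30, 106 and 19 reads in Dam::EMR-1 and to 1913, 1752 and 2008 in GFP::Dam. No libraries overlapped, and the Dam::EMR-1 library of replicate 2 was the highest of its group. The log2 ratios over all 12 sites, -4.87, -4.61 and -4.55, were the closest to each other among the 10 genes (mean -4.68 ± 0.17, SD, n = 3, adjusted p = 0.0002, limma). On the 10 sites with reads per library, a fit that did not pair libraries gave a mean of -5.10 with no library left out. In that fit the mean was -5.47 without the Dam::EMR-1 library of replicate 2. It was -5.36 without the GFP::Dam library of replicate 3 and -5.26 without that of replicate 1. Of 10 sites tested, 6 were called lower. The gene M03F4.6, which begins where act-4 ends and shares 5 sites with it by the 500-bp margin, had a mean of -4.02 ± 0.32 (SD, n = 3, adjusted p = 0.00056, limma).

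**Figure D2:**
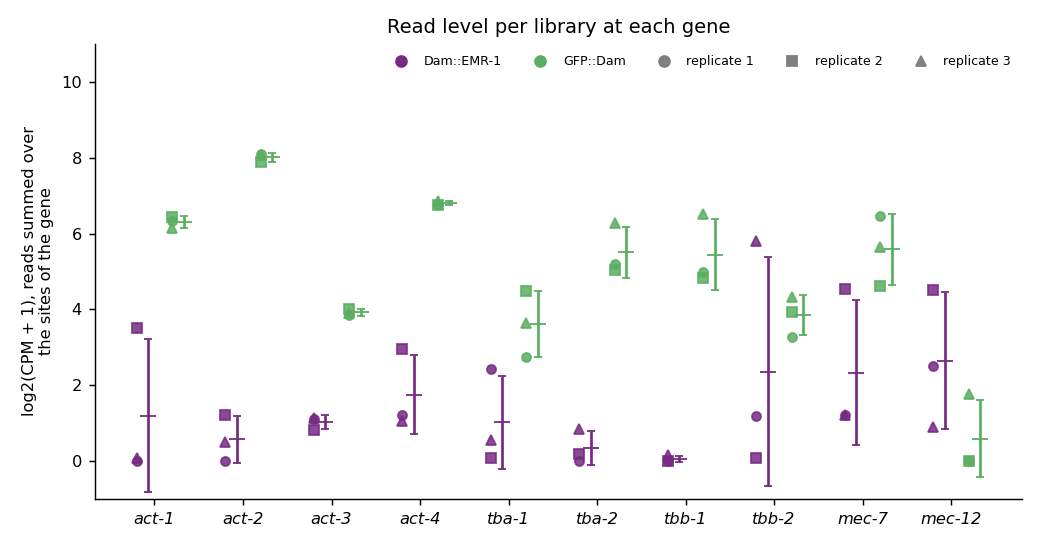
Level per library at each gene as log2(CPM + 1) on the y axis, with Dam::EMR-1 left of GFP::Dam, 1 point per library by replicate (circle, square, triangle) and the mean with SD (n = 3 each). Every Dam::EMR-1 library lies below every GFP::Dam library at 8 of the 10 genes; the groups overlap at tbb-2 and mec-12.

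Among the broadly used alpha-tubulins, tba-2 had the lower ratio and tba-1 the higher one, and both were called lower in Dam::EMR-1. For tba-2 (CELE_C47B2.3, chromosome I, 12964674 to 12966271), the Dam::EMR-1 libraries held 0, 2 and 14 reads over 8 sites, against 628, 519 and 1343 in GFP::Dam. The groups did not overlap, and replicate 3 was the highest in both. The mean log2 ratio was -5.46 ± 0.45 (SD, n = 3, adjusted p = 0.00021, limma), and 5 of 6 tested sites were called lower. All 8 numbered GATC sites of tba-2 between its first and last listed one are listed. The neighbour C47B2.2, which shares 2 sites with it, had a mean of -2.28 ± 1.85 (SD, n = 3, adjusted p = 0.045, limma), a call lost without replicate 1 or replicate 3. In its gene body alone, C47B2.2 was at -1.15 (adjusted p = 0.43), and on summed reads at -0.58 in edgeR without the replicate block and -0.59 in DESeq2 (adjusted p = 0.76 and 0.73).

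For tba-1 (CELE_F26E4.8, chromosome I, 9785781 to 9787624), the reads over 8 sites were 97, 1 and 8 in Dam::EMR-1 and 99, 348 and 200 in GFP::Dam. The highest Dam::EMR-1 library, replicate 1, nearly met the lowest GFP::Dam library, also replicate 1, at 4.33 and 5.65 CPM. The log2 ratios were -2.01, -4.90 and -2.68, with a mean of -3.20 ± 1.51 (SD, n = 3, adjusted p = 0.011, limma). Without replicate 2 the mean was -2.35 and the call was lost (adjusted p = 0.08), without replicate 1 the mean was -3.79, and without the GFP::Dam library of replicate 2 it was -2.61 and still called. The middle segment of chromosome I, where tba-1 lies, had a median log2 ratio of -1.91, with 45.6% of its genes called lower and 30.5% of them below tba-1. With 753 reads over all libraries, tba-1 was the least covered of the 10 genes. The neighbour drsh-1, which encodes the microRNA-processing enzyme Drosha and shares 4 sites with tba-1, had a mean of -3.74 ± 1.12 (SD, n = 3, adjusted p = 0.0033, limma), and on sites in no other annotated gene one of -2.69 (adjusted p = 0.095).

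The broadly used beta-tubulins tbb-1 and tbb-2 were also called lower, at unlike values. For tbb-1 (CELE_K01G5.7, chromosome III, 10740868 to 10742432), the Dam::EMR-1 libraries held 0, 0 and 2 reads over 5 sites, against 533, 446 and 1586 in GFP::Dam. The groups did not overlap, and 4 of the 5 sites had no read in any Dam::EMR-1 library. A library with 0 reads allows a level of up to 0.134 to 0.191 CPM, depending on its total, at 3 counts, for counting error only. The log2 ratios were -3.34, -4.55 and -5.59, with a mean of -4.49 ± 1.13 (SD, n = 3, adjusted p = 0.00088, limma). Without the GFP::Dam library of replicate 3 the mean was -3.79, without that of replicate 1 it was -5.18, and it was called both times. Averaging over sites gives each site the same weight, and 1 of the 3 tested sites was called lower, the one farther outside the lower end of the gene, with 0, 0 and 2 reads in Dam::EMR-1 and 520, 415 and 551 in GFP::Dam. At 2 sites inside the gene, GFP::Dam reads came almost wholly from replicate 3, with 582 and 451 reads, against 1 and 0 in replicate 1. The sites outside the gene are shared with the neighbour tass-1, whose mean was -6.31 ± 0.10 (SD, n = 3, adjusted p = 7.1e-05, limma). Within the gene body alone, tbb-1 had a mean of -3.52 (adjusted p = 0.03). The neighbour rib-2, on the other side and with no shared site, had a mean of -3.31 ± 0.85 (SD, n = 3, adjusted p = 0.0048, limma).

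For tbb-2 (CELE_C36E8.5, chromosome III, 4015910 to 4017627), the reads over 10 sites were 29, 1 and 945 in Dam::EMR-1 and 152, 234 and 333 in GFP::Dam. The groups overlapped, since Dam::EMR-1 replicate 3 was the highest of all 6 libraries, with 97.6% of the CPM of its group. The exact two-sided permutation test of log2(CPM + 1) gave p = 0.4. The log2 ratios averaged over 11 sites were -1.22, -2.86 and -2.34, with a mean of -2.14 ± 0.84 (SD, n = 3), the highest of the 9 genes called, at an adjusted p of 0.034 (limma). The call was lost without replicate 2 (mean -1.78, adjusted p = 0.15), without replicate 3 (mean -2.04, adjusted p = 0.11) and when ratios were scaled by total reads (mean -1.88, adjusted p = 0.056). No single site of tbb-2 was called among 8 tested. The 945 reads sat at a pair of following sites 391 bp apart, with 526 and 419 reads in replicate 3 of Dam::EMR-1 and 0 reads there in the other Dam::EMR-1 libraries. The neighbour C36E8.4, which shares 3 sites, had a mean of -1.68 ± 1.86 (SD, n = 3, adjusted p = 0.16, limma) and was called only without the GFP::Dam library of replicate 1 (mean -3.19, adjusted p = 0.022).

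The 2 tubulins of the touch receptor neurons differed from each other. For mec-7 (CELE_ZK154.3, chromosome X, 7774856 to 7776689), the reads over 11 sites were 30, 348 and 23 in Dam::EMR-1 and 1543, 384 and 864 in GFP::Dam. The groups did not overlap, but in replicate 2 they came to 22.1 CPM in Dam::EMR-1 and 23.6 CPM in GFP::Dam. The log2 ratios were -4.73, -2.56 and -5.01, with a mean of -4.10 ± 1.34 (SD, n = 3, adjusted p = 0.0015, limma). Without replicate 2 the mean was -4.87. At 2 following sites 386 bp apart, replicate 2 of Dam::EMR-1 had 176 and 155 reads and replicate 2 of GFP::Dam 0 and 1, whereas replicate 1 of GFP::Dam had 561 and 552. At 7 of the 11 sites no Dam::EMR-1 library had a read. The neighbour ZK154.4 shares 4 of the sites of mec-7 and had a mean of -2.25 ± 1.87 (SD, n = 3, adjusted p = 0.048, limma), a call lost without replicate 2 or replicate 3. In its gene body alone, ZK154.4 was at -0.92 (adjusted p = 0.51), and the call was also lost with total-read scaling (adjusted p = 0.072) and in edgeR with and without the replicate block (adjusted p = 0.21 and 0.24). The neighbour deg-1, which encodes a channel subunit of the degenerin family and shares 3 sites, had a mean of 0.97 ± 0.52 (SD, n = 3, adjusted p = 0.24, limma).

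For mec-12 (CELE_C44B11.3, chromosome III, 3131574 to 3139234), the longest of the 10 genes at 7661 bp, 5 sites are listed and only 2 gave reads per library. Those 2 sites held 106, 345 and 15 reads in Dam::EMR-1 and 0, 0 and 42 in GFP::Dam, so the groups overlapped through replicate 3 (exact two-sided permutation test of log2(CPM + 1), p = 0.2). The log2 ratios over the 5 sites were 0.48, 4.32 and -1.20, on both sides of 0, with a mean of 1.20 ± 2.83 (SD, n = 3, adjusted p = 0.34, limma). Without replicate 2 the mean was -0.36. On the 2 sites with reads per library, a fit that did not pair libraries gave 2.49 with no library left out (adjusted p = 0.14, limma). Without the GFP::Dam library of replicate 3 that fit gave 3.91 and called the gene higher (adjusted p = 0.03, limma). Over the 2-kb bins that the gene touches the mean was -0.72. Its position among genes was ordinary, with 59.3% of all genes tested and 56.1% of those in the left segment of chromosome III below it. The neighbour Y53G8B.1, with no shared site, had a mean of -2.34 ± 2.83 (SD, n = 3, adjusted p = 0.11, limma). Over 2-kb bins Y53G8B.1 was called lower, at -4.54 (adjusted p = 0.0068, limma).

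At the level of whole genes, every Dam::EMR-1 library was below every GFP::Dam library at 8 of the 10 genes, against 25.5% of all genes with recovered reads. With 3 against 3 libraries the exact two-sided permutation test cannot go below p = 0.1, which each of the 8 genes reached. The mean CPM of these 8 genes lay between 0.0384 and 8.27 in Dam::EMR-1 and between 12.8 and 258 in GFP::Dam. At 9 of the 10 genes, act-3 being the exception, 1 Dam::EMR-1 library held at least 73.5% of the CPM of its group, against 58.4% for the median gene. All Dam::EMR-1 libraries together held only 2 reads at tbb-1, 16 at tba-2 and 28 at act-2. With so few reads the share is easily high, and the median gene was not matched on Dam::EMR-1 reads. The library with the largest share was replicate 2 for act-1, act-2, act-4, mec-7 and mec-12, replicate 3 for tba-2, tbb-1 and tbb-2, and replicate 1 for tba-1.

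Ordered by mean log2 ratio, the genes ran act-2, tba-2, act-1, act-4, act-3, tbb-1, mec-7, tba-1, tbb-2 and mec-12. Where Dam::EMR-1 has no reads, the ratio of a site is bounded by its GFP::Dam reads, so this order can follow coverage. On summed reads tbb-1 was below act-2, at -11.06 against -9.64 in DESeq2. The GFP::Dam mean CPM was 1289 times the other at tbb-1 and 446 times at act-2. With pseudocounts of 0.1 and 5, act-2 was at -9.70 and -5.42 and tbb-1 at -6.97 and -2.94. The step between act-2 and tba-2 was 1.85 ± 0.40 and was above 0 in 3 of 3 replicates (SD, n = 3). From tba-2 up to tba-1, each step between neighbours in the order was between 0.03 and 0.90, smaller than its SD, which was 0.28 to 2.82, so those 7 genes did not differ from their neighbours beyond the spread. The step between tbb-2 and tba-1 was 1.06 ± 0.88, above 0 in 3 of 3 replicates. The step between mec-12 and tbb-2 was 3.34 ± 3.34 (SD, n = 3). The pair mec-7 and mec-12 had a mean log2 ratio of -1.45 ± 2.08 and the 4 broadly used tubulins one of -3.82 ± 0.64 (SD, n = 3). The difference was 0.98, 5.20 and 0.93 in the 3 replicates and averaged 2.37 ± 2.45 (exact two-sided sign-flip test, p = 0.25, the smallest that 3 replicates allow). Of the pair, mec-12 exceeded the broadly used tubulins by 5.02 ± 3.16, whereas mec-7 differed from them by -0.28 ± 1.80 (SD, n = 3).

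**Figure D3:**
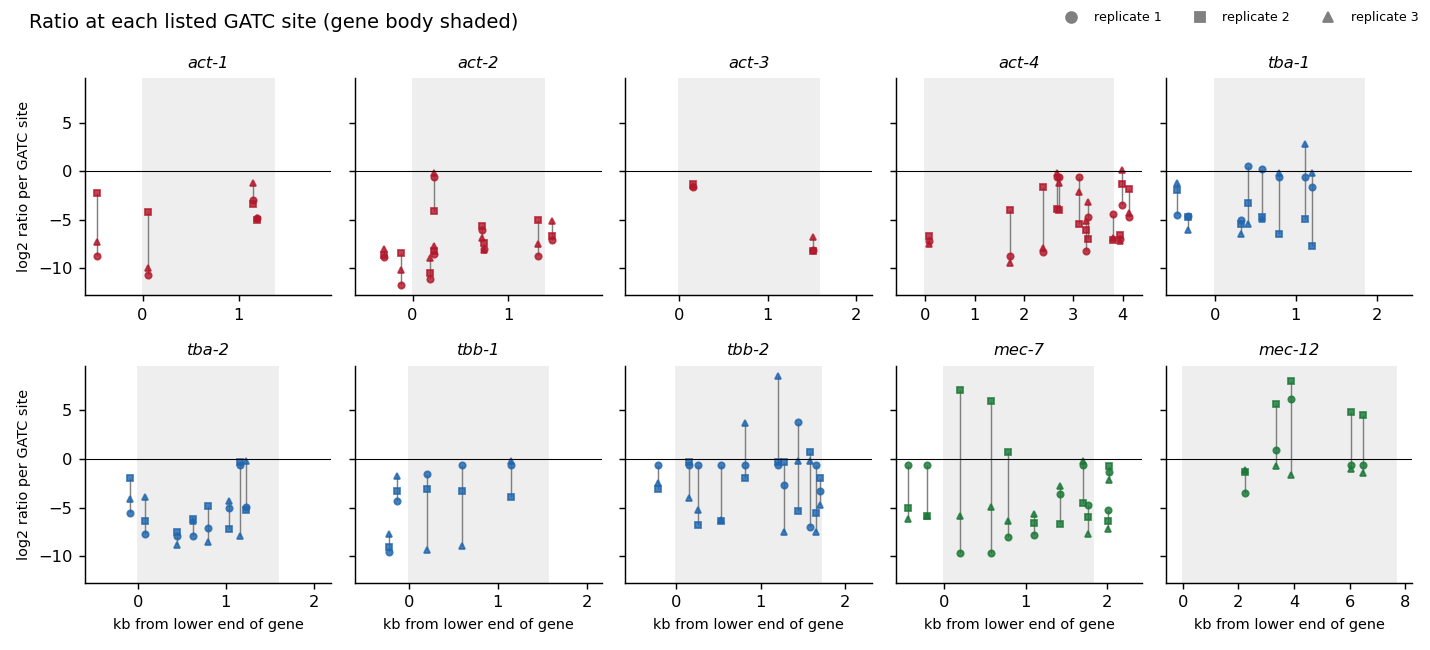
Log2 ratio at each listed GATC site (y axis) against distance in kb from the lower end of the gene (x axis), 1 panel per gene, with 3 points per site for the replicates joined by a line and the gene body shaded. Sites of the actins and of tba-2 lie below 0 almost throughout, and those of tbb-2, mec-7 and mec-12 spread to both sides.

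Site by site, the 10 genes hold 75 listed GATC sites, 57 of them inside the gene bodies. No site is shared by 2 of the genes. The mean ratio was below 0 at 69 of the 75, and all 3 replicates were below 0 at 60. A pair without reads in either library also stands below 0, because of the centring, and is counted there. The shares over all sites were not computed, so neither count is set against a background. Of 61 sites deep enough to test, 29 were called lower and 0 higher (limma, adjusted over 124915 sites), against 12.7% lower and 12.5% higher over all sites tested. The calls are close to the threshold, with 0 of the 61 called lower at an adjusted p of 0.01. With any 1 of the 3 replicates left out, which leaves 2 ratios per site, 0 of the 61 were called. The shares over all sites were not computed for these fits, so the loss cannot be called particular to these sites. In the authors' deposited table, 42 of the 65 sites with an adjusted p were lower at 0.05 and 0 were higher, against 19.1% lower and 18.3% higher over all sites with one. Per gene, limma called 8 of 8 tested sites for act-2, 3 of 3 for act-1, 5 of 6 for tba-2, 6 of 10 for act-4, 1 of 2 for act-3, 2 of 6 for tba-1, 3 of 10 for mec-7 and 1 of 3 for tbb-1. None of the 8 tested sites of tbb-2 and of the 5 of mec-12 was called.

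Reads per library were recovered for 69 of the 75 sites. At 34 of them no Dam::EMR-1 library had a read, against 14.7% of all sites, and at 1, in tbb-2, no GFP::Dam library had one, against 19.5%. Every Dam::EMR-1 library was below every GFP::Dam library at 36 sites, against 17.9% of all sites, and above it at 0, against 25.3%. The sites with no Dam::EMR-1 read were 7 in mec-7, 5 each in tba-2 and tbb-2, 4 each in act-2, tba-1 and tbb-1, 3 in act-4 and 2 in act-1.

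**Figure D4:**
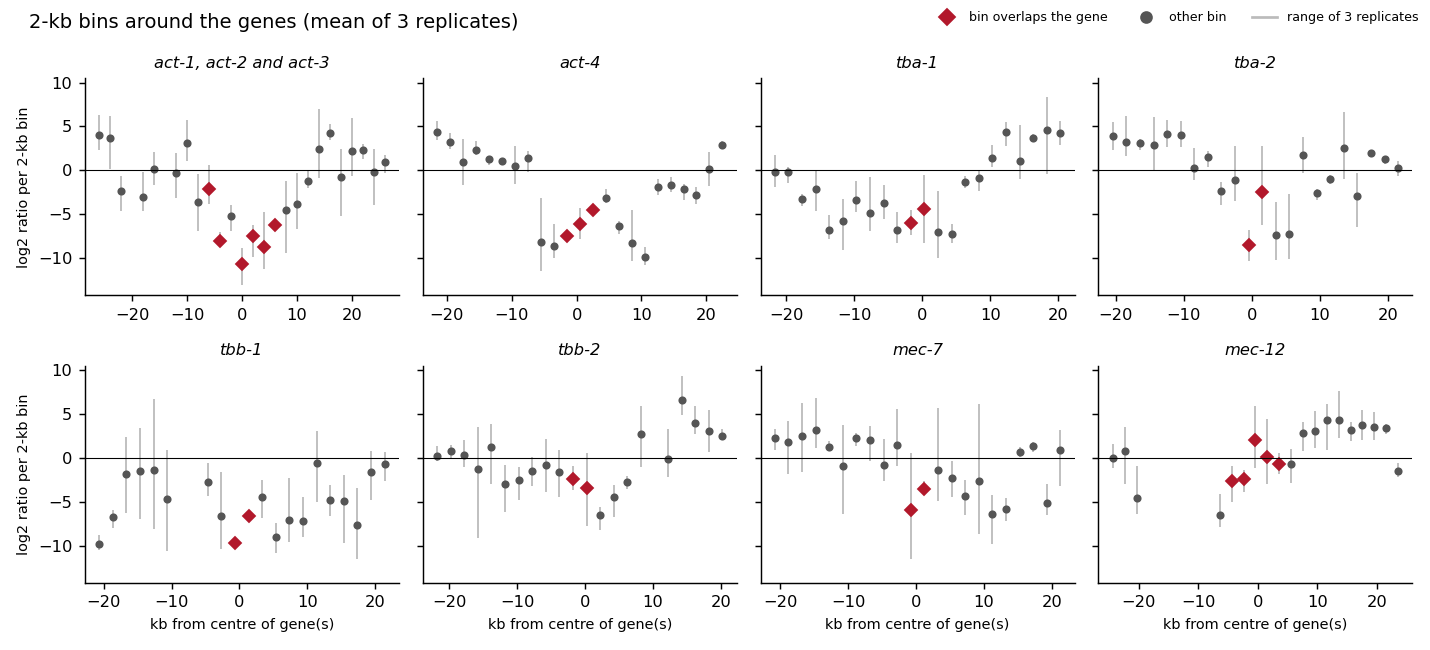
Log2 ratio of 2-kb bins (y axis, mean of 3 replicates, with a line for their range) against distance in kb from the centre of the gene or gene cluster (x axis); diamonds are bins that overlap the gene and circles the bins around it. The bins on the actin genes of chromosome V go down to -10.68 amid bins that reach 4.28, whereas every bin of the tbb-1 window lies below 0, the highest at -0.56.

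Bins of 2 kb within 20 kb of the genes show how local the low values are. Over all windows 161 bins were tested, of which 42 were called lower and 12 higher (limma, adjusted over 41117 bins), against 17.2% lower and 19.2% higher over all bins tested. In the window of act-1, act-2 and act-3, the 6 bins on the genes averaged -7.20 ± 0.77 and the 19 bins around them -0.09 ± 0.54 (SD, n = 3 replicates). The difference of -7.12 ± 1.31 was below 0 in 3 of 3 replicates, and 5 of the 6 bins on the genes but 1 of the 19 around them were called lower. Around tba-2 the contrast was also wide, at -5.49 ± 3.01 on the gene and 0.30 ± 0.39 around it, and around mec-7 it was -4.70 ± 2.74 on the gene and -0.49 ± 0.50 around it (SD, n = 3 replicates). For tba-2, 1 of the 2 bins on the gene and 2 of the 20 around it were called lower. For mec-7 these counts were 1 of 2 and 4 of 20, and the lowest bin of its window, at -6.41, lay outside the gene.

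The bins around tbb-1, act-4 and tba-1 were themselves low on average. The 2 bins on tbb-1 averaged -8.12 ± 0.26 and the 18 around it -4.62 ± 1.32, and 9 of those 18 were called lower. For act-4 the bins on the gene averaged -6.03 ± 0.65 and those around it -1.73 ± 0.33, the lowest bin of that window, at -9.86, lying outside the gene. For tba-1 these values were -5.22 ± 1.76 and -1.70 ± 0.58 (SD, n = 3 replicates). The bins on tbb-2 averaged -2.94 ± 2.42 and those around it -0.16 ± 0.45. In each of these 4 windows the gene was below its surroundings in 3 of 3 replicates. As for act-4, the lowest bin of the window lay outside the gene for tbb-1 (-9.81), tba-1 (-7.27), tbb-2 (-6.52) and mec-12 (-6.48). The bins on mec-12 averaged -0.72 ± 1.88 and those around it 1.14 ± 0.15, the gene being the lower in 2 of 3 replicates (SD, n = 3 replicates).

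Other cytoskeletal genes and genes of the touch receptor neurons were set beside the 10 by lists, of which 83 of 84 genes, members included, were matched by symbol. Of 9 other tubulin genes, 2 were called lower and 3 higher, with a median log2 ratio of 1.67, beside 27.2% lower and 30.3% higher over all genes. The gamma-tubulin gene tbg-1, whose product starts microtubules at centrosomes, was lower, at -2.86 ± 0.58 (SD, n = 3, adjusted p = 0.011, limma), though not without replicate 3 (adjusted p = 0.062), on sites in no other annotated gene (adjusted p = 0.064) or in edgeR with and without the replicate block (adjusted p = 0.074 and 0.057). The alpha-tubulin genes tba-8, tba-7 and tba-6 were higher, at 3.93 ± 1.01, 3.60 ± 1.21 and 2.81 ± 1.22 (SD, n = 3, adjusted p of 0.00075 to 0.0035, limma). The call of tba-6 was lost on sites in no other annotated gene (mean 1.30, adjusted p = 0.18) and in edgeR with the replicate block (2.04, adjusted p = 0.076). That of tba-7 was lost in edgeR with the block (2.37, adjusted p = 0.078) and without it (2.15, adjusted p = 0.096). The other gene of this list called lower was tba-9, at -1.52 ± 0.80 (SD, n = 3, adjusted p = 0.032, limma). The genes tba-5 and tbb-4, which encode tubulins of ciliated neurons, were not called, at 0.98 ± 0.65 and -1.30 ± 1.80 (SD, n = 3). On summed reads tbb-4 was called lower, at -2.95 in DESeq2 (adjusted p = 0.005) and -2.87 in edgeR without the replicate block (adjusted p = 0.049).

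The intestinal actin gene act-5, whose product fills the microvilli of the gut, had log2 ratios of 3.77, 0.83 and 3.70, a mean of 2.77 ± 1.68 (SD, n = 3, adjusted p = 0.0044, limma), opposite in sign to act-1 to act-4. That call was lost without the GFP::Dam library of replicate 3 (mean 2.36, adjusted p = 0.056), and over 2-kb bins, where the mean was 0.81 (adjusted p = 0.3). It was also lost on summed reads, in edgeR with the replicate block (1.23, adjusted p = 0.21) and without it (1.36, adjusted p = 0.095) and in DESeq2 (1.31, adjusted p = 0.078). Subunits of the Arp2/3 complex, which branches actin filaments, were listed with it. Of these, arx-3, arx-1, arx-2 and arx-4 were lower, at -5.41 ± 0.49, -4.95 ± 0.52, -3.15 ± 0.72 and -2.27 ± 0.70, and arx-5 was not called, at -0.31 ± 2.09 (SD, n = 3). The call of arx-4 was lost without replicate 1 (adjusted p = 0.057) or replicate 3 (adjusted p = 0.053), and that of arx-2 without replicate 1 (adjusted p = 0.05). On sites in no other annotated gene the mean of arx-1 was -1.63 and its call was lost (adjusted p = 0.11). Both edgeR fits lost arx-2 (adjusted p = 0.1 with the replicate block and 0.075 without it) and arx-4 (0.2 and 0.43). The genes arx-6 and arx-7 had no listed site. In all, 4 of the 6 tested were lower and 1 higher, with a median of -2.71, against 27.2% lower and 30.3% higher over all genes.

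Of 17 actin regulators tested, 7 were lower, 1 higher and 9 not called, with a median of -1.40, against 27.2% lower and 30.3% higher over all genes. The lower ones included unc-60, which encodes the filament-severing protein cofilin, at -4.75 ± 0.38, nmy-2, the non-muscle myosin of the embryonic cortex, at -4.33 ± 0.17, and wve-1, a WAVE protein that activates Arp2/3, at -4.37 ± 1.21 (SD, n = 3). The cyclase-associated protein gene cas-1 was higher, at 1.94 ± 0.45, and the plastin gene plst-1 and the AIP1 gene unc-78 were not called, at 0.59 ± 1.45 and 0.18 ± 2.41 (SD, n = 3). The call of cas-1 was lost over 2-kb bins (mean 0.46, adjusted p = 0.52), in edgeR with and without the replicate block (0.69 and 0.76, adjusted p = 0.41 and 0.28) and in DESeq2 (0.73, adjusted p = 0.34). Of 24 microtubule factors and subunits of the CCT chaperonin, which folds actin and tubulin, 15 were lower, 1 higher and 8 not called, with a median of -2.77, against the same 27.2% and 30.3%. The chaperonin genes cct-5 and cct-1 had means of -5.82 ± 0.03 and -3.87 ± 0.50, the CLASP gene cls-2 one of -5.82 ± 0.91, and noca-1, which organises non-centrosomal microtubules, one of -5.48 ± 0.57 (SD, n = 3). Of the other chaperonin genes, cct-6 and cct-2 were called lower, at -3.25 and -3.02. The genes cct-4, cct-7, cct-8 and cct-3 were not called, at -2.08, -1.31, -0.32 and 0.96. The katanin subunit gene mei-2 and the tau-like gene ptl-1 were not called, at -0.41 ± 2.59 and -0.12 ± 0.38 (SD, n = 3). Over 2-kb bins mei-2 was called lower, at -5.51 (adjusted p = 0.02, limma).

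Of 12 genes of the touch receptor neurons, 1 was lower, 6 were higher and 5 were not called, with a median of 1.01, against 27.2% lower, 30.3% higher and a median of 0.31 over all genes. The transcription factor genes mec-3 and unc-86, which specify these neurons, were higher, at 3.48 ± 1.50 and 3.41 ± 0.11, as were mec-9 and mec-1, which encode extracellular proteins needed for touch, at 3.47 ± 1.14 and 2.42 ± 0.50 (SD, n = 3, adjusted p of 0.0011 to 0.0041, limma). In edgeR with the replicate block the calls of mec-9, mec-1 and unc-86 were lost (adjusted p = 0.062, 0.063 and 0.084), that of unc-86 also without the block (adjusted p = 0.063). The tubulin acetyltransferase gene mec-17 and mec-18 were not called, at -0.16 ± 1.01 and 0.34 ± 1.56 (SD, n = 3). Over 2-kb bins mec-17 was called lower, at -2.75 (adjusted p = 0.033, limma). The tubulin gene mec-7, at -4.10 ± 1.34, was below the lowest of the 12, which was at -2.38, and mec-12, at 1.20 ± 2.83, was close to their median.

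**Figure D5:**
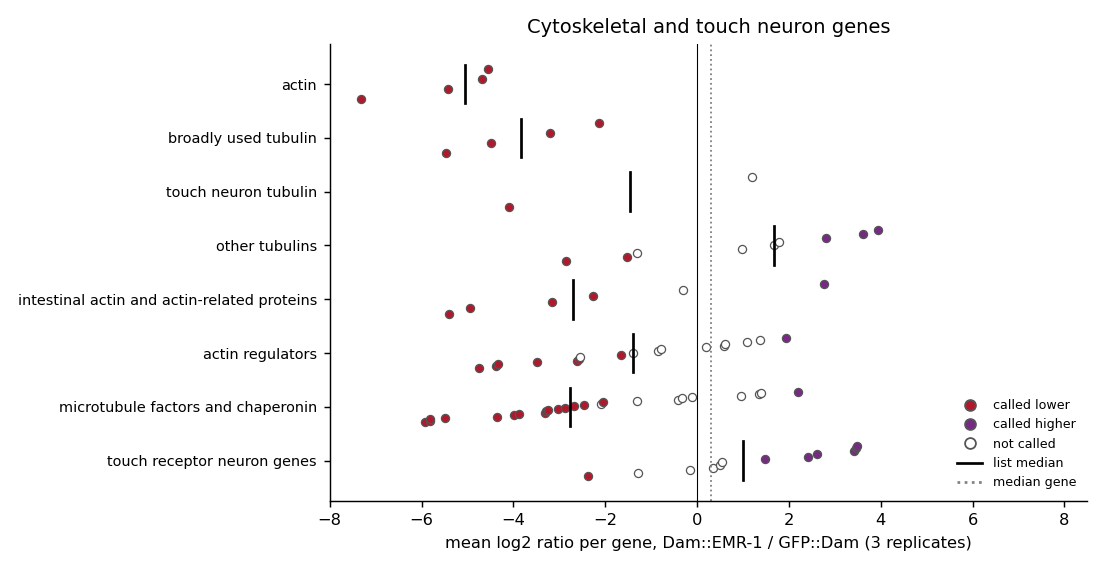
Mean log2 ratio of each gene over 3 replicates (x axis) by list (y axis), with filled points for genes called lower or higher and open points for genes not called; the bar is the list's median and the dotted line the median gene at 0.31. The actins run from -7.31 to -4.56, the microtubule factors and chaperonin from -5.93 to 2.21, and the touch receptor neuron genes from -2.38 to 3.48.

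The genes whose 3 replicate ratios were most like those of each member, outside its own 20 kb and at least as covered as the median gene, were found by Euclidean distance in log2 units over the 3 ratios. They were ech-1.2 for act-1 at a distance of 0.464, C47G2.3 for act-2 at 0.248, unc-130 for act-3 at 0.201 and fbxb-74 for act-4 at 0.101. For the broadly used tubulins they were alg-1 for tba-1 at 0.0895, rpn-8 for tba-2 at 0.271, syp-4 for tbb-1 at 0.226 and C26D10.4 for tbb-2 at 0.369. They were R13H4.5 for mec-7 at 0.239 and nas-22 for mec-12 at 0.615. Within a distance of 1 there were 185 genes for act-4 and 163 for act-3, but 4 for mec-12, whose spread of replicates few genes matched.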

How the data were processed

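The deposited tables hold, per the file headers, a log2 ratio per replicate number, a count of raw reads summed over libraries, and the authors' average log2 value and adjusted p-value, for GATC sites and bins. The submitters' processing notes name ce11 as the build and DESeq2 as a tool, with no version or role. The aligner and the handling of reads that match several places are not given in the sources used. The values show that a deposited log2 ratio compares (reads + 1) in 1 library with (reads + 1) in the other and then subtracts a constant.

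Whole reads per library were recovered from ratio and read sum (tolerance 4e-12 in log2), uniquely for 90.2% of GATC sites, 90.1% of 2-kb and 99.9% of 100-kb bins; sites with several solutions stayed out of read levels. Depth came from the 100-kb table. PCR copies cannot be told from independent molecules, so intervals and floors cover counting error only. The number of unused per-sample columns was 0.

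The tables hold ratios, so limma 3.58.1 (intercept only, variance trend on log2 reads, robust, Benjamini-Hochberg) was the test, with at least 60 reads per gene, site or bin. Genes had a median of 6 sites, with coordinates from a RefSeq table of WBcel235, the assembly of ce11. Read levels were compared as log2(CPM + 1), with a pseudocount of 1, by exact permutation. The test was tested on simulated data. Alternatives were read minimum, scaling, pseudocounts of 0.1 and 5, gene body alone, 2-kb bins, sites in no other gene, an adjusted p of 0.01, edgeR 4.0.16, DESeq2 1.42.0 and libraries left out. Fits without a single library compared the groups unpaired and used only sites with recovered reads, so their means can differ from the main ones for that reason too. The members and lists were chosen with earlier results of these data known. Named genes are all members, their neighbours, and of each list up to 4 with the smallest and 2 with the largest adjusted p. The remaining chaperonin genes and tba-9 were named in addition.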

Additional observations from a re-analysis of the deposited data

How the results depend on the processing

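Of the 9 genes called lower, edgeR on summed reads called 5 with a replicate block and 5 without one. On only sites in no other annotated gene, 4 of 8 testable genes were called lower, and the share over all genes was not computed there. The genes act-1 and act-3 could not be tested on such sites. Over all genes edgeR called 14.5% lower with the block and 17.1% without it. The 2 edgeR fits lost tba-1 (adjusted p = 0.14 with the replicate block, 0.11 without), tbb-2 (0.3 and 0.93) and mec-7 (0.077 and 0.069). The block also lost act-3 (0.054), and the fit without it act-1 (0.078). Libraries of equal replicate number did not vary together, since deviations from the group means correlated at -0.03 to -0.01. This cannot show how the libraries were prepared. The ratios and their SDs rest on taking libraries of equal number together, and another pairing would give other SDs. A limma fit that did not pair libraries called 8 of the 10 genes lower and 0 higher. Leaving out 1 replicate or library left 7 to 9 genes lower and 0 to 1 higher, the 1 being mec-12 without GFP::Dam replicate 3. The 29 sites called lower became 0 at an adjusted p of 0.01 and 0 without any 1 replicate. The 42 lower 2-kb bins became 12 at an adjusted p of 0.01 and 23 to 24 with 1 replicate left out, and the 12 higher bins became 22 with total-read scaling, 0 at an adjusted p of 0.01 and 0 to 2 with 1 replicate left out. The shares over all genes, sites and bins were not computed for these left-out, stricter or rescaled settings, nor for the unpaired fit. Total-read scaling moved ratios of sites by 0.17 to 0.39 and of 2-kb bins by 0.36 to 0.90.

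Among members, act-2, act-4 and tba-2 kept their call under all 21 settings run on them. The call of tbb-2 was lost under 14 of 20 settings, that of tba-1 under 5 of 21, and that of tbb-1 on its sites in no other gene (-2.93, adjusted p = 0.05). The sign of mec-12 turned without replicate 2 and over 2-kb bins (-0.72). Over its 5 sites, its mean ran between -0.36 and 2.40 with 1 replicate left out. Over the 2 sites with reads per library, it ran between 1.35 and 3.91 with 1 library left out. The tubulin class difference was 0.96 to 3.09 with 1 replicate left out and turned to -0.28 with mec-7 alone.

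Elsewhere, signs turned for genes that were not called, whose means reached 0.97 at deg-1, 0.98 at tba-5 and 1.27 at nas-22. The sign of C26D10.4, which was called lower at -2.30, turned as well. With 1 replicate or library left out, the mean ran between -1.38 and 0.70 for arx-5, -0.11 and 1.34 for plst-1, -0.89 and 1.49 for unc-78, -1.90 and 0.41 for mei-2, -0.51 and 0.10 for ptl-1, -0.44 and 1.13 for mec-18, -0.70 and 0.29 for mec-17, and -0.057 and 2.31 for nas-22. In gene bodies alone signs turned for arx-5 (0.11), unc-78 (-0.045), mei-2 (1.84) and C26D10.4 (0.25), and on sites in no other gene for unc-78 (-0.13), mei-2 (1.77) and C26D10.4 (0.55). Total-read scaling turned ptl-1 (0.15) and mec-17 (0.11), a pseudocount of 0.1 mec-18 (-0.37), and 2-kb bins tba-5 (-0.11). On summed reads plst-1 was at -0.0059 in edgeR with the replicate block, -0.36 without it and -0.38 in DESeq2, and deg-1 at -0.21 in edgeR without it and -0.24 in DESeq2.

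The cause of these changes was not tested. The depth of 753 reads at tba-1 and 784 at act-3 is the lowest among members.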

Other observations

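At 5 genes, most reads of 1 Dam::EMR-1 library sat at a pair of GATC sites that follow each other in the numbering, with similar reads at both. These were 96 and 68 reads 537 bp apart at act-1 in replicate 2, 38 and 47 reads 663 bp apart at act-4 in replicate 2, and 48 and 49 reads 183 bp apart at tba-1 in replicate 1. At tbb-2 they were 526 and 419 reads 391 bp apart in replicate 3, and at mec-7 176 and 155 reads 386 bp apart in replicate 2. The same pair at mec-7 held 561 and 552 reads in GFP::Dam replicate 1 and 105 and 110 in replicate 3. The pairs were picked after their values were seen, and what they stem from was not tested.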
